A study of Rattus norvegicus with 9 samples.

Results

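The microtubule-associated proteins and neurofilaments of cultured rat sympathetic neurons were followed through the first day of exposure to BMP-7, a secreted growth factor of the bone morphogenetic protein family under which these neurons extend dendrites. The genes taken were 10 in number: Mapt, Map2, Map1b, Ina, Nefl, Nefm, Prph, Gap43, Dclk1 and Mark1. All probe sets of the Rat Genome U34A array that the platform's annotation gives to one of these genes alone were used, which came to 20 of the 8740 probe sets tested. No probe set shared between several genes included any of the 10. Neurons were dissociated from superior cervical ganglia of rat embryos on embryonic day 21 and grown in serum-free medium with nerve growth factor at 100 ng/ml, after 48 hr of the antimitotic agent Ara-C to deplete non-neuronal cells. On day 5 in culture they received BMP-7 at 50 ng/ml for 6 hr (BMP6h, n = 3 arrays) or 24 hr (BMP24h, n = 3 arrays), while control cultures were kept for 24 hr in medium alone (control, n = 3 arrays). No separate control of 6 hr in medium was among the samples, so both times were set against the same 3 control arrays. The paper states that RNA of every condition was isolated at one time, on day 6 in culture. By that account the control cultures matched both exposures in day of harvest. The cultures carried no transgene or mutation, and the 3 conditions were sister cultures of one dissection, in 3 independent dissections. The labels do not say which arrays share a dissection.

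Microtubules run along both kinds of neuronal process, and the proteins bound to them differ between the processes. Tau, the product of Mapt, is sorted mainly to the axon in mature neurons, while MAP2 is kept in dendrites and the cell body and is the usual antigen for staining dendrites. Neurofilaments are intermediate filaments that fill the axon and set its calibre, built from light, medium and heavy subunits together with alpha-internexin or, in peripheral neurons, peripherin. GAP-43 is a membrane-bound protein of growth cones and growing axons. The comparison therefore places axonal transcripts (Mapt, Gap43, Ina, Nefl, Nefm and Prph) beside the dendritic transcript (Map2). These names follow the usual place of the protein, and the place of the RNA was not measured. The study itself counts Ina among genes whose products are found in dendrites, so its place in the axonal group is a convention.

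Each value is a log2 expression value, in which a difference of 1 is a doubling of signal, and a level of one probe set cannot be set against that of another, because probes differ in how strongly they bind. Differences are log2 fold changes from limma with the processing batch as a term. They are called "past the thresholds of the Methods" where they differ by at least 1.2 times (0.263 on the log2 scale) and the p before adjustment is under 0.05. A stricter call used p-values adjusted over all 8740 probe sets with 0.05 as the threshold. In RNA from whole cultures, fewer cells of a type and less RNA per cell cannot be told apart.

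One array stood apart. In BMP6h replicate 2, 9.99% of values were over 1 log2 unit away from the average of its companion replicates, against 4.21% in BMP6h replicate 3, 3.84% in control replicate 3 and at most 1.09% in the remaining 6 arrays. For sympathetic neurons the mean log2 value of 13 markers was 10.50 to 10.56 in control, 10.59 to 10.62 at 6 hr and 10.45 to 10.67 at 24 hr. The 6 hr arrays lay narrowly above all control arrays, and the 24 hr arrays spanned both ranges. Th, the tyrosine hydroxylase of noradrenaline synthesis, averaged 13.49, 13.42 and 13.41 in control, at 6 hr and at 24 hr. Of the 13, Ddc was lower and Elavl4 higher at 24 hr past the thresholds of the Methods (log2 fold changes -0.45 and 0.35). Over all 4736 genes, 2.05% were lower and 1.77% higher at 24 hr by the same thresholds. For markers of fibroblasts and matrix the mean over 19 genes was 9.46 to 9.70 in control, 9.49 to 9.59 at 6 hr and 9.14 to 9.36 at 24 hr. Past the thresholds of the Methods, 5 of the 19 (Dcn, Lum, Mgp, Vim and Igfbp3) were lower at 24 hr, beside 2.05% of all genes. The summed linear signal of the same 19 genes was 28275 to 30771 in control and 25667 to 27740 at 24 hr. This sum is not one of fibroblasts alone, since the 19 include Thy1, which also stands among the axonal proteins below. Thy1 is bright and averaged 12.80 in control and 13.05 at 24 hr. The part of fibroblasts in the differences at 24 hr was not tested. Of 14 glial and 12 macrophage and blood cell markers none passed those thresholds in any comparison, and the mean of the 14 glial markers was 7.59 to 7.67 in control, 7.56 to 7.61 at 6 hr and 7.56 to 7.75 at 24 hr. Among 7 endothelial and mural cell markers, Kdr alone was past them, lower at both times, beside 0.887% of all genes at 6 hr and 2.05% at 24 hr.

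At 24 hr the transcripts of tau and alpha-internexin were lower than in control and that of the kinase MARK1 was higher, while Gap43, Prph, Nefl and Nefm lay within 0.11 log2 units of control. None of the 20 probe sets passed the adjusted test at 24 hr, where 0.217% of all probe sets did. Past the thresholds of the Methods were 4 lower probe sets (2 of 3 for Mapt and both for Ina), beside 1.74% of all probe sets, and 1 higher probe set (Mark1), beside 1.6%. The study had already named Mapt and Ina as lower and Mark1 as activated from these same arrays, and members were chosen with earlier results known. The member counts here and between the times are thus no independent evidence. The values of the 3 treated arrays lay wholly below those of the 3 control arrays for 6 of 20 probe sets (3 Mapt, 2 Ina and 1 Map2), beside 7.07% of all, and wholly above for Mark1 alone, beside 5.61%. Over the 20 probe sets the median log2 fold change was -0.11 with 14 lower, against a median of 0.01 and 48.2% lower over all 8740. Without BMP24h replicate 2 the median was -0.02 with 11 lower, against 0.00 and 50.2% over all.

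At 6 hr differences were fewer. None of the 20 passed the adjusted test (0.0458% of all probe sets did), 1 probe set of Map2 was higher past the thresholds of the Methods (0.881% of all), and none was lower (0.847% of all). Without overlap between the arrays, 2 probe sets were higher (1 each for Map2 and Nefl, beside 3.65% of all) and 3 lower (2 Mapt and 1 Ina, beside 6.96%). The median of the 20 was 0.03 with 8 lower, against -0.02 and 55.1% lower over all, and the direction turned without BMP6h replicate 2 (median -0.04 with 12 lower, against 0.00 and 49.8%).

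Set directly against 6 hr, the 24 hr arrays gave lower values for 18 of 20 probe sets, with a median of -0.26, against 45.1% lower and a median of 0.03 over all 8740. Much of that size came from BMP6h replicate 2. Without that array 16 of 20 were lower and the median was -0.10, against 46.3% and 0.01 over all. In batch 1 alone, which holds 1 array per condition, 12 of 20 were lower with a median of -0.16, against 48.2% and 0.01 over all. With array weights 15 of 20 were lower with a median of -0.15, against 47.9% and 0.01. None of the 20 passed the adjusted test between the times, nor did any probe set of the array (0.0% of 8740 by limma, with 259 at an unadjusted p under 0.05). Past the thresholds of the Methods were 3 lower probe sets (2 Mapt and 1 Ina, beside 1.52% of all) and 1 higher (Mark1, beside 1.4%). Of 19 alternatives, rc_AI227608_s_at of Mapt was past them in 18, X79321_at of Mapt in 12, rc_AA875659_s_at of Ina in 10 and Mark1 in 15. Without overlap between the times were again 3 lower probe sets (4.04% of all) and 1 higher (5.63%).

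**Figure D1:**
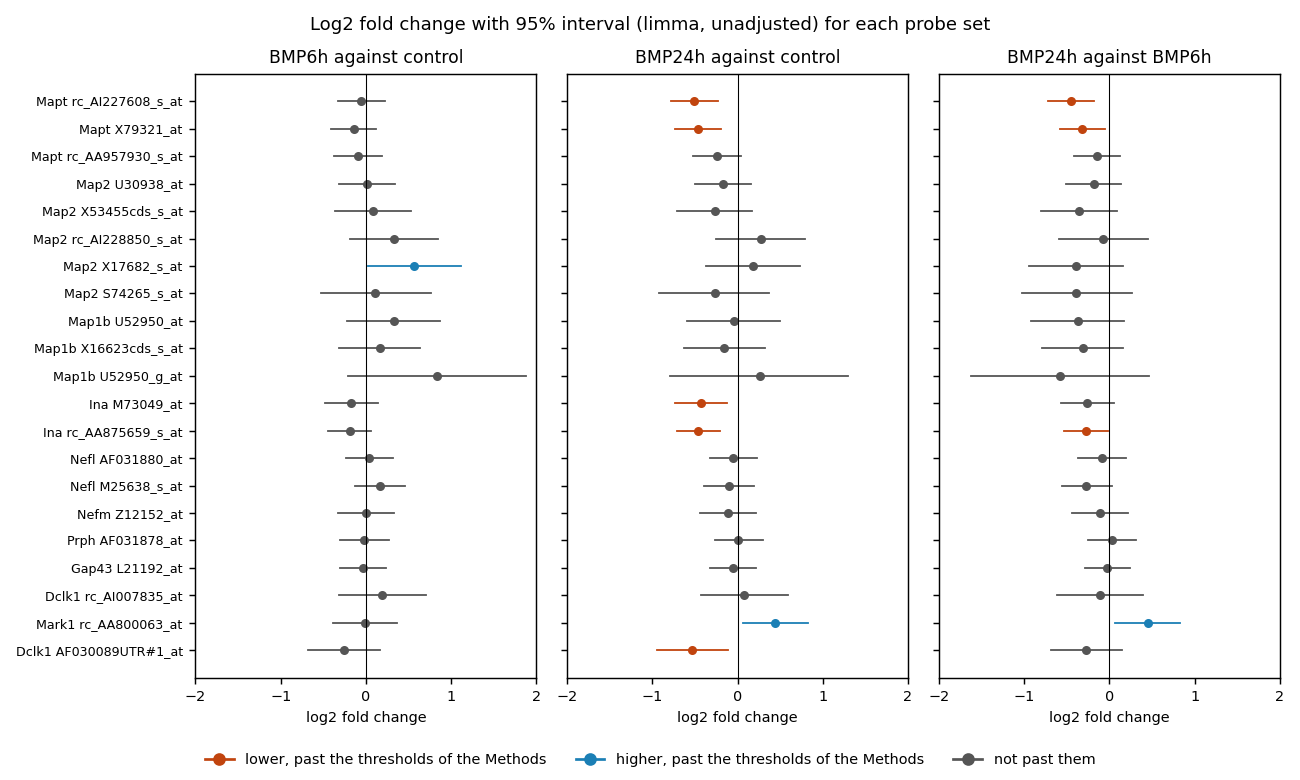
Log2 fold changes of the 20 probe sets and of a second probe set named for Dclk1 (bottom), in 3 panels for the 3 comparisons. Points are limma estimates and bars their unadjusted 95% intervals, and colour marks the thresholds of the Methods: at 24 hr the Mapt and Ina estimates reach -0.51 and -0.46 while those of Nefm, Prph and Gap43 span 0.

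Mapt encodes tau, which binds along microtubules and spaces and stabilises them in the axon. Probe set rc_AI227608_s_at read 12.38, 12.25 and 12.34 in control, 12.27, 12.25 and 12.29 at 6 hr, and 11.76, 11.73 and 11.97 at 24 hr. Control and 6 hr arrays shared one range, and all 24 hr arrays were below it. Probe set X79321_at read 12.02, 11.94 and 12.12 in control, 11.88, 11.89 and 11.87 at 6 hr, and 11.57, 11.67 and 11.46 at 24 hr, so that the 3 conditions followed each other downward without overlap. The third probe set, rc_AA957930_s_at, read 11.02, 11.08 and 11.03 in control, 10.87, 10.99 and 10.99 at 6 hr, and 10.91, 10.87 and 10.64 at 24 hr. Here both treated groups lay below control but overlapped each other.

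At 24 hr tau signal stood at 70.4% of control for rc_AI227608_s_at (log2 fold change -0.51, SE 0.12, 95% interval -0.78 to -0.23, limma adjusted p = 0.339), lower in 3 of 3 replicates. For X79321_at it stood at 72.6% of control (-0.46, SE 0.11, interval -0.73 to -0.19, limma adjusted p = 0.431). The third probe set gave a smaller value of -0.24 (SE 0.12, interval -0.52 to 0.04, limma adjusted p = 1.0). At 6 hr the 3 probe sets gave -0.06, -0.14 and -0.09, each with an interval that spans 0, the widest reach being to -0.41 for X79321_at. The step from 6 to 24 hr was -0.45 for rc_AI227608_s_at (limma adjusted p = 0.859) and -0.32 for X79321_at (limma adjusted p = 0.939).

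Each of the 3 Mapt probe sets was lower at 24 hr in both processing batches. In batch 1, which holds replicate 1 of each condition, the difference was -0.62 for rc_AI227608_s_at, -0.45 for X79321_at and -0.12 for rc_AA957930_s_at, and in batch 2, which holds replicates 2 and 3, -0.45, -0.47 and -0.30. Leaving out each array in turn gave -0.59 to -0.46 for the first, -0.52 to -0.40 for the second and -0.31 to -0.15 for the third. Of 19 alternative fits, 2 called each of the first 2: with array weights the adjusted p was 0.00399 for rc_AI227608_s_at and 0.00677 for X79321_at, and with an intensity trend 0.0355 and 0.0497, within ranges over the alternatives that reached 1.0.

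Ina encodes alpha-internexin, an intermediate filament protein that appears early in neuronal differentiation and joins neurofilaments in the axon. Probe set M73049_at read 11.46, 11.44 and 11.62 in control, 11.23, 11.31 and 11.48 at 6 hr, and 11.23, 11.02 and 10.98 at 24 hr. The 24 hr arrays were all below control, and the 6 hr arrays lay between and touched both. Probe set rc_AA875659_s_at read 10.93, 10.81 and 10.95 in control, 10.73, 10.72 and 10.67 at 6 hr, and 10.38, 10.50 and 10.42 at 24 hr. As for X79321_at of Mapt, the 3 conditions ran downward with no overlap.

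Alpha-internexin signal at 24 hr was 72.6% of control for rc_AA875659_s_at (log2 fold change -0.46, SE 0.11, 95% interval -0.71 to -0.21, limma adjusted p = 0.348) and 74.3% for M73049_at (-0.43, SE 0.13, interval -0.74 to -0.12, limma adjusted p = 0.786). At 6 hr the probe sets gave -0.19 (interval -0.44 to 0.06) and -0.17 (interval -0.48 to 0.14). From 6 to 24 hr the log2 fold change was -0.27 for rc_AA875659_s_at (limma adjusted p = 0.939) and -0.26 for M73049_at (limma adjusted p = 0.939). Both probe sets were lower in batch 1 (-0.55 and -0.23) and in batch 2 (-0.42 and -0.53) at 24 hr. With each array left out in turn the values ran from -0.51 to -0.42 for rc_AA875659_s_at and from -0.54 to -0.36 for M73049_at, and rc_AA875659_s_at passed the adjusted test in 2 of 19 alternatives (adjusted p = 0.00374 with array weights, in a range up to 1.0).

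The 250 bases before the RefSeq start of Ina are shown because it was the filament gene with lower values at 24 hr, and those of Map1b beside it, a member not past the thresholds then. Both windows lie outside the annotated span of their gene (build GRCr8, Ina on the plus strand at chr1:255837879-255838128, Map1b on the minus strand at chr2:32644472-32644721). Capitals mark an E-box, searched as CANNTG on both strands.
Ina: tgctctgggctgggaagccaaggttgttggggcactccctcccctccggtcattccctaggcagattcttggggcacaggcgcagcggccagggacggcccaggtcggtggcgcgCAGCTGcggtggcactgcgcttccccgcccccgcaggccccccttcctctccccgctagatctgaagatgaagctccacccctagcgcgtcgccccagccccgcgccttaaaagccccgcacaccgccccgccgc
Map1b: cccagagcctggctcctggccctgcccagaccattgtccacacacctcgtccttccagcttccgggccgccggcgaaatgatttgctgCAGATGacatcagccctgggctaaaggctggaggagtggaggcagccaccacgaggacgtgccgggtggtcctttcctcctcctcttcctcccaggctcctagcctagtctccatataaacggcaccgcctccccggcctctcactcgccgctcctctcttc
The E-box begins 135 bases before the start of Ina and 162 before that of Map1b, and the GC content is 70.8% and 63.6%. Such a match is common: 65.5% of 33469 rat promoter windows of this length hold one. A GC-rich motif that Smad proteins can bind, GGCGCC, was searched likewise and is in neither window, while 8.69% of all windows hold it.

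**Figure D2:**
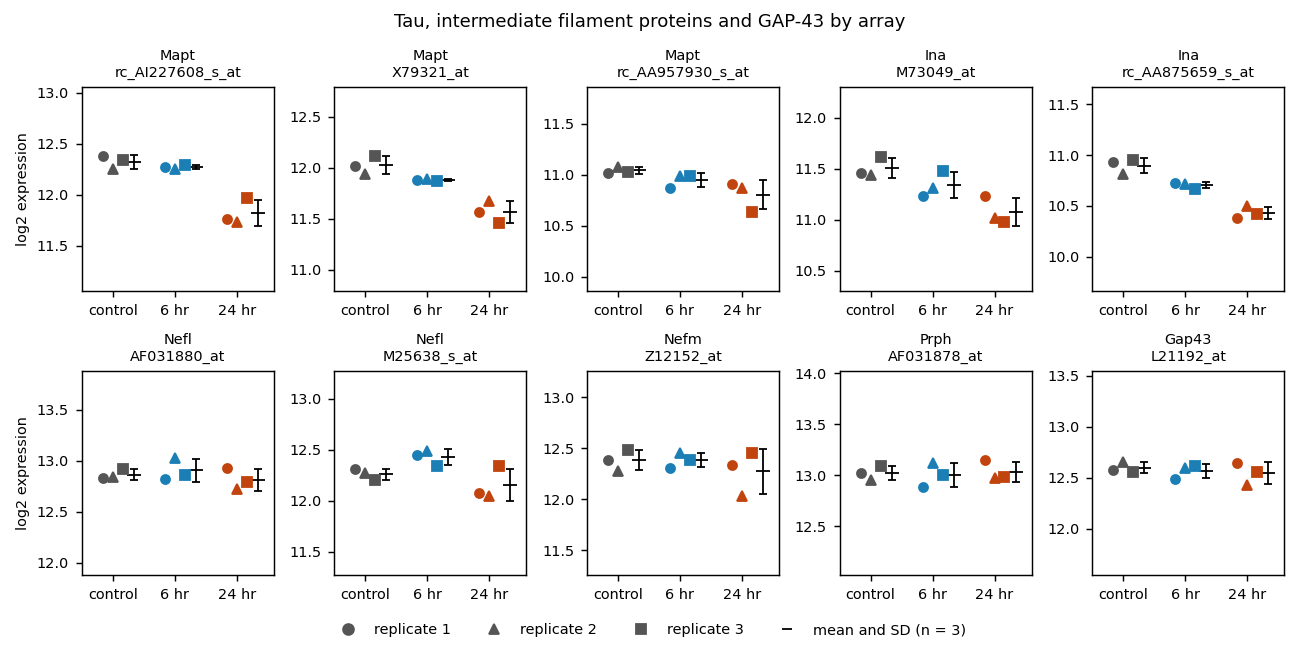
Log2 expression of the 10 axonal probe sets in each array (marker shape gives the replicate, colour the condition), with the mean and SD of n = 3 beside each condition. The upper row holds Mapt and Ina, whose 24 hr arrays lie below control in all 5 panels, and the lower row Nefl, Nefm, Prph and Gap43, where the conditions overlap at 24 hr.

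Nefl and Nefm encode the light and medium neurofilament subunits and neighbour each other on rat chromosome 15, with 1 annotated gene and 0 protein-coding genes between them. Nefl probe set AF031880_at read 12.83, 12.84 and 12.92 in control, 12.82, 13.03 and 12.86 at 6 hr, and 12.93, 12.72 and 12.79 at 24 hr, and the conditions overlapped. Probe set M25638_s_at read 12.31, 12.27 and 12.20 in control, 12.45, 12.49 and 12.34 at 6 hr, and 12.08, 12.05 and 12.34 at 24 hr. Its 6 hr arrays were all above control, while BMP24h replicate 3 equalled the lowest of them. Against control, AF031880_at differed by 0.04 at 6 hr and -0.05 at 24 hr (95% interval -0.33 to 0.23), and M25638_s_at by 0.17 and -0.10 (interval -0.40 to 0.19 at 24 hr). The largest difference for Nefl was from 6 to 24 hr in M25638_s_at, -0.27 (limma adjusted p = 0.939).

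Nefm (Z12152_at) read 12.39, 12.28 and 12.48 in control, 12.31, 12.45 and 12.39 at 6 hr, and 12.34, 12.03 and 12.45 at 24 hr, where BMP24h replicate 2 was the one low array. Its log2 fold change was 0.00 at 6 hr (95% interval -0.33 to 0.33) and -0.11 at 24 hr (interval -0.44 to 0.22). Prph encodes peripherin, the intermediate filament of peripheral neurons, and AF031878_at read 13.02, 12.95 and 13.09 in control, 12.89, 13.12 and 13.00 at 6 hr, and 13.15, 12.97 and 12.98 at 24 hr. The conditions covered one range, with log2 fold changes of -0.02 (interval -0.30 to 0.27) and 0.01 (interval -0.27 to 0.30).

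Gap43 (L21192_at) read 12.58, 12.66 and 12.56 in control, 12.49, 12.60 and 12.62 at 6 hr, and 12.65, 12.43 and 12.56 at 24 hr. No condition stood out. Its log2 fold change was -0.03 at 6 hr (95% interval -0.30 to 0.24) and -0.06 at 24 hr (interval -0.33 to 0.21). The intervals of Gap43 and Prph at 24 hr reach down to -0.33 and -0.27, so they leave out the estimates of both Ina and of 2 Mapt probe sets but hold that of rc_AA957930_s_at of Mapt, -0.24. The intervals of Nefl and Nefm reach further, to -0.40 and -0.44. The difference in response between these genes was not itself tested.

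Map2 encodes the dendritic protein MAP2, and its 5 probe sets did not move together. The brightest, U30938_at, read 9.73, 9.77 and 9.65 in control, 9.65, 9.95 and 9.58 at 6 hr, and 9.61, 9.40 and 9.63 at 24 hr. All 24 hr arrays lay just below the lowest control array. The log2 fold change was 0.01 at 6 hr (95% interval -0.31 to 0.34) and -0.17 at 24 hr (SE 0.14, interval -0.50 to 0.16, limma adjusted p = 1.0).

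Probe set X17682_s_at of Map2 was the only one of the 20 past the thresholds of the Methods at 6 hr. It read 6.10, 6.24 and 5.62 in control, 6.5, 6.83 and 6.35 at 6 hr, and 6.11, 5.87 and 6.51 at 24 hr. The 6 hr arrays were all above control, by little for BMP6h replicate 3, and the low control array was replicate 3. The log2 fold change at 6 hr was 0.57 (SE 0.24, interval 0.02 to 1.12, limma adjusted p = 0.887), higher in both batches (0.40 and 0.65). It was 0.37 (limma adjusted p = 0.994) without control replicate 3 and 0.42 (limma adjusted p = 0.999) without BMP6h replicate 2, and 9 of 19 alternatives left it past those thresholds. A fit with the replicate number as a block was among those that did not (adjusted p = 0.758 by limma, in a range of 0.533 to 0.999).

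Of the dimmer Map2 probe sets, X53455cds_s_at read 6.86, 7.20 and 7.14 in control, 7.34, 7.03 and 7.09 at 6 hr, and 6.82, 6.48 and 7.09 at 24 hr (log2 fold changes 0.08 and -0.27). Probe set rc_AI228850_s_at read 6.43, 6.72 and 5.90 in control, 6.77, 6.51 and 6.77 at 6 hr, and 6.45, 6.58 and 6.82 at 24 hr (0.33 and 0.27, which became 0.09 and 0.02 without control replicate 3). For both, the groups overlapped throughout. The dimmest, S74265_s_at, read 4.67, 4.65 and 4.45 in control, 4.48, 5.38 and 4.24 at 6 hr, and 4.45, 4.30 and 4.20 at 24 hr (0.11 and -0.27), and its 1 high value came from BMP6h replicate 2, without which the 6 hr value was -0.26.

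Side by side, the 10 axonal probe sets had 7 lower than control at 6 hr (median log2 fold change -0.04) and 9 lower at 24 hr (median -0.17). Over all 8740 probe sets 55.1% were lower at 6 hr (median -0.02) and 48.2% at 24 hr (median 0.01). The axonal median at 6 hr was thus close to that of all probe sets. At 24 hr the axonal count was 7 of 10 without BMP24h replicate 2, in batch 1 alone and with array weights (medians -0.16, -0.17 and -0.18). Over all probe sets 50.2%, 56.2% and 55.6% were lower in these settings. Map2 had 0 of 5 probe sets lower at 6 hr (median 0.11) and 3 lower at 24 hr (median -0.17). That 24 hr median of Map2 was -0.09 without BMP24h replicate 2, and 0.01 with 2 of 4 lower when dim probe sets were left out. The axonal median at 24 hr was divided by gene, with all 5 Mapt and Ina probe sets between -0.51 and -0.24 and the 5 others between -0.11 and 0.01. At 6 hr the Map2 median was 0.15 with 2 of 5 lower without BMP6h replicate 2, and 0.09 with 1 lower without control replicate 3. From 6 to 24 hr all 5 Map2 probe sets went to lower values, with a median of -0.36 that became -0.16 without BMP6h replicate 2 and -0.19 without BMP24h replicate 2. Between these times 45.1% of all probe sets were lower, with a median of 0.03. The axonal probe sets then had 9 of 10 lower (median -0.2), but 4 of 10 in batch 1 alone (median 0.02), where 48.2% of all were lower. The probe sets of one gene share RNA and arrays, so their number is not a number of replicates.

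**Figure D3:**
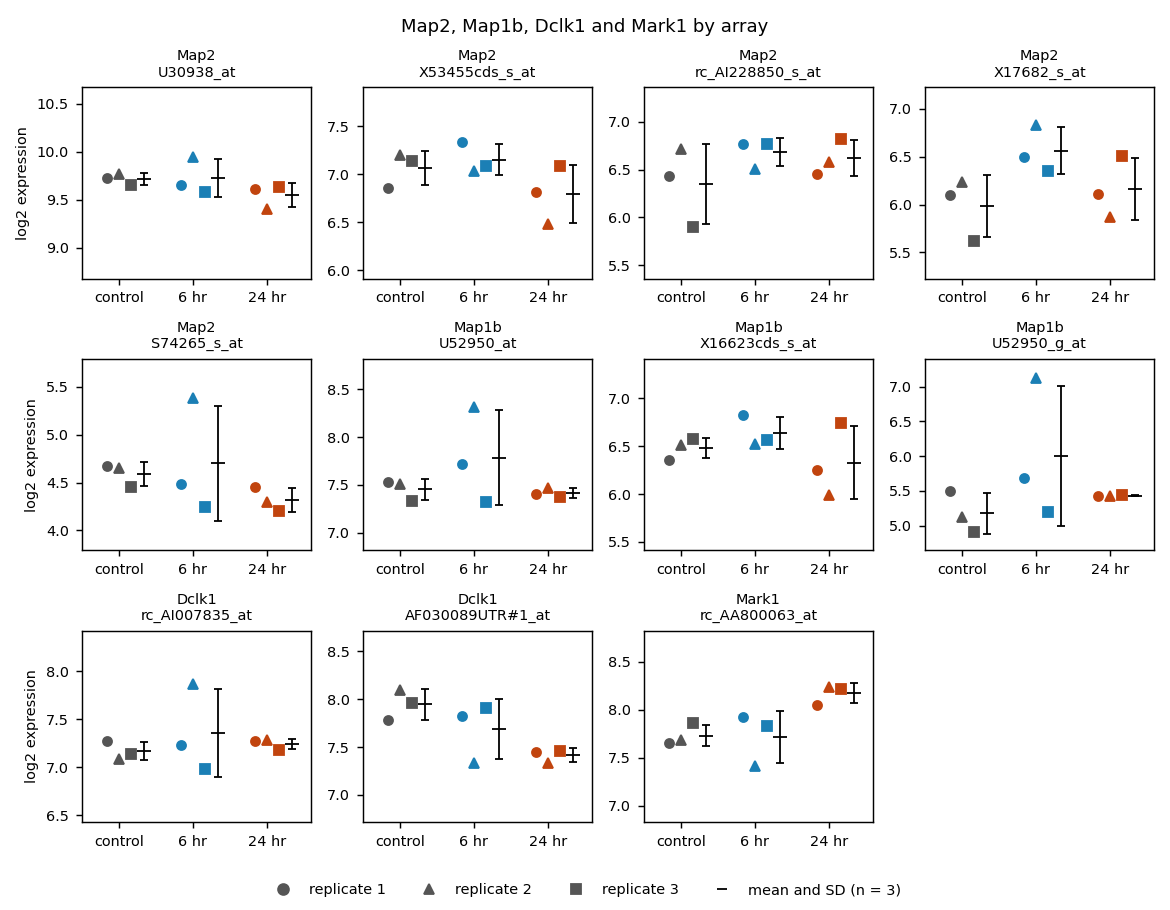
Log2 expression of the Map2, Map1b, Dclk1 and Mark1 probe sets in each array (marker shape gives the replicate, colour the condition), with the mean and SD of n = 3 beside each condition. The 6 hr triangle (BMP6h replicate 2) lies far above the rest for U52950_g_at of Map1b at 7.13, and Mark1 is the one panel whose 24 hr arrays, 8.05 to 8.24, clear all others.

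Map1b encodes MAP1B, a microtubule-associated protein of growing neurites that is made early in development. Probe set U52950_at read 7.53, 7.51 and 7.33 in control, 7.72, 8.31 and 7.32 at 6 hr, and 7.40, 7.47 and 7.37 at 24 hr. Probe set U52950_g_at read 5.50, 5.12 and 4.91 in control, 5.69, 7.13 and 5.19 at 6 hr, and 5.42, 5.43 and 5.44 at 24 hr. For both, BMP6h replicate 2 alone was far above the other arrays. The 6 hr log2 fold change of U52950_g_at, 0.83 (SE 0.45, limma adjusted p = 0.887), was 0.22 without that array, and that of U52950_at went from 0.33 to 0.04. The third probe set, X16623cds_s_at, read 6.36, 6.51 and 6.57 in control, 6.83, 6.52 and 6.56 at 6 hr, and 6.25, 5.99 and 6.74 at 24 hr. At 24 hr the 3 probe sets gave -0.04 (95% interval -0.59 to 0.50), 0.26 (interval -0.79 to 1.30) and -0.16 (interval -0.63 to 0.32), wide intervals that leave differences of either sign within them.

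Dclk1 encodes doublecortin-like kinase 1, which joins a microtubule-binding doublecortin domain to a protein kinase. Its annotated probe set, rc_AI007835_at, read 7.27, 7.09 and 7.14 in control, 7.23, 7.87 and 6.98 at 6 hr, and 7.27, 7.28 and 7.18 at 24 hr, with the groups overlapping and BMP6h replicate 2 the high array. The log2 fold change was 0.19 at 6 hr (95% interval -0.32 to 0.70) and 0.08 at 24 hr (interval -0.43 to 0.59), and the 6 hr value was -0.09 without that array. A second probe set, AF030089UTR#1_at, has no gene in the platform's annotation, so it is kept outside the counts of 20. It was named Dclk1 by the study, which picked it from these same arrays. It read 7.78, 8.10 and 7.96 in control, 7.82, 7.33 and 7.91 at 6 hr, and 7.45, 7.33 and 7.46 at 24 hr, all 24 hr arrays being below control. Against control it differed by -0.26 at 6 hr and by -0.53 at 24 hr (SE 0.18, interval -0.95 to -0.11, limma adjusted p = 0.994), so the probe sets given to Dclk1 disagree in sign at 24 hr. The second was no longer past the thresholds of the Methods without control replicate 2 (-0.45) or BMP24h replicate 2 (-0.49).

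Mark1 encodes a microtubule affinity-regulating kinase, which phosphorylates tau, MAP2 and related proteins in their microtubule-binding repeats and so loosens them from microtubules. Its probe set, rc_AA800063_at, read 7.65, 7.68 and 7.86 in control, 7.92, 7.41 and 7.83 at 6 hr, and 8.05, 8.24 and 8.22 at 24 hr. Control and 6 hr arrays overlapped, and all 24 hr arrays were above both. Signal at 24 hr was 1.36 times control (log2 fold change 0.44, SE 0.16, 95% interval 0.06 to 0.82, limma adjusted p = 1.0) and 1.37 times that at 6 hr (0.45, limma adjusted p = 0.939), while 6 hr differed from control by -0.01 (interval -0.39 to 0.37).

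The 24 hr difference of Mark1 was 0.41 in batch 1 and 0.46 in batch 2, and ran from 0.38 to 0.53 with each array left out. It was past the thresholds of the Methods in 14 of 19 alternatives and was lost in batch 2 alone and without control replicate 1, control replicate 2, BMP24h replicate 2 or BMP24h replicate 3, each time at an adjusted p of 1.0 by limma. From 6 to 24 hr the value without BMP6h replicate 2, which was the low array, was 0.28 (limma adjusted p = 1.0), and within the batches it was 0.13 and 0.61.

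**Figure D4:**
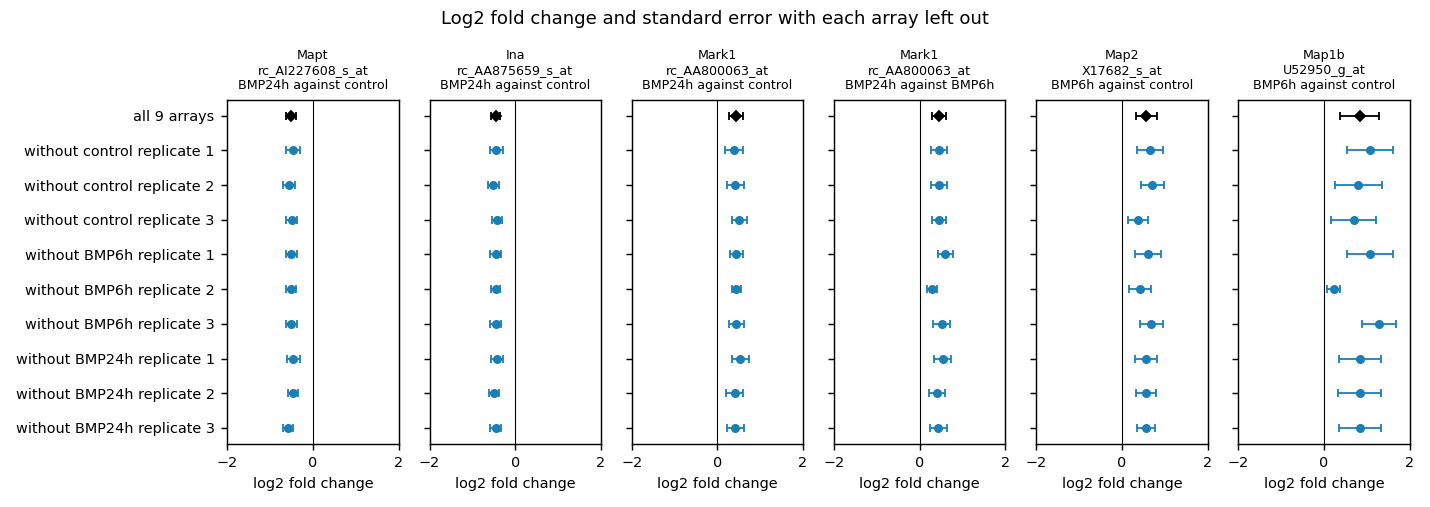
Log2 fold change with its standard error (bars) for 6 probe set comparisons, with all 9 arrays (diamond) and without each array in turn (circles). At 24 hr against control Mapt runs from -0.59 to -0.46, Ina from -0.51 to -0.42 and Mark1 from 0.38 to 0.53. Mark1 is not past the thresholds of the Methods without control replicate 1, control replicate 2, BMP24h replicate 2 or BMP24h replicate 3. U52950_g_at of Map1b at 6 hr moves from 0.83 to 0.22 without BMP6h replicate 2.

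Other genes of the same cytoskeletal systems were read at their brightest probe set. None of them passed the adjusted test in any comparison. Over all 4736 genes the thresholds of the Methods held 1.77% higher and 2.05% lower genes at 24 hr, and 0.908% and 0.887% at 6 hr. Between the times they held 1.58% higher and 1.63% lower. Among 15 other microtubule-associated and microtubule-regulating proteins, 7 were higher and 8 lower after 24 hr (median 0.00), and 1 was past those thresholds. This was Map1a, whose protein MAP1A is the mature, dendrite-rich relative of MAP1B. It read 10.00, 10.05 and 10.11 in control, 9.94, 10.06 and 9.84 at 6 hr, and 9.73, 9.79 and 9.48 at 24 hr, all 24 hr arrays lying below the rest (log2 fold change -0.38, SE 0.13, limma adjusted p = 1.0).

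Of 17 kinases and phosphatase subunits that act on microtubule-associated proteins, 9 were higher and 8 lower at 24 hr (median 0.01), and none was past the thresholds in any comparison. Of 13 other intermediate filament genes, 6 were higher and 7 lower at 24 hr (median -0.09), and 1 was past them. Vim, the vimentin of fibroblasts, glia and immature neurons, read 11.43, 11.43 and 11.51 in control, 11.49, 11.48 and 11.70 at 6 hr, and 11.17, 10.81 and 11.25 at 24 hr. Its log2 fold change was -0.38 against control (SE 0.15, limma adjusted p = 1.0) and -0.48 against 6 hr (limma adjusted p = 0.939), and Vim is also one of the fibroblast markers that were lower.

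Of 28 other growth-associated and axonal proteins 20 were measured, and 8 were higher and 12 lower at 24 hr (median -0.04). Cntn2, the axonal adhesion protein contactin-2, was higher past the thresholds (0.32, SE 0.13, limma adjusted p = 1.0), and Chl1, a relative of the adhesion protein L1, was lower at 24 hr than at 6 hr (-0.75, SE 0.32, limma adjusted p = 0.939). Of 22 dendritic and postsynaptic genes other than Map2, 12 were higher and 10 lower (median 0.06). Rasgrf1, a calcium-activated exchange factor for Ras, read 6.36, 7.03 and 5.39 in control and 7.39, 7.80 and 6.93 at 24 hr, a difference of 1.11 (SE 0.42, limma adjusted p = 1.0) in which the highest control array overlapped the lowest treated one. Map1a stands in this list as well and was its 1 lower gene past the thresholds.

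The genes whose values followed the members most closely over the 9 arrays were found by Pearson correlation of brightest probe sets, as a description across arrays that share the same conditions. For Mapt they were Ptprr, a tyrosine phosphatase (r = 0.996), Anxa5, a phospholipid-binding annexin (r = 0.981), and Plcb1, a phospholipase C (r = 0.980), whose log2 fold changes at 24 hr were -0.85, -0.27 and -0.96. For Ina they were Cd151, a tetraspanin (r = 0.967, -0.18 at 24 hr), and Calb1, the calcium buffer calbindin (r = 0.933, -0.80 at 24 hr). For Map2 the highest was Huwe1, a ubiquitin ligase (r = 0.944, -0.17 at 24 hr). Among the members, X79321_at of Mapt followed rc_AA875659_s_at of Ina with r = 0.97 over 9 arrays. Mark1 ran against the 3 Mapt probe sets with r from -0.76 to -0.71 and against U30938_at of Map2 with r = -0.87. With the other Map2 probe sets its r was -0.83 (S74265_s_at), -0.37 (X53455cds_s_at), -0.36 (X17682_s_at) and 0.18 (rc_AI228850_s_at). BMP6h replicate 2 was both the highest array for U30938_at (9.95) and the lowest for Mark1 (7.41). The Mapt probe sets followed each other with r from 0.57 to 0.84, whereas U52950_g_at of Map1b followed rc_AI007835_at of Dclk1 with r = 0.94, a pair for which BMP6h replicate 2 was the high array in both.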

How the data were processed

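Total RNA of sympathetic neurons, pooled from several cultures per condition, was hybridised to 9 Rat Genome U34A arrays, 1 per sample. Signal was deposited on the log2 scale after the authors had run RMA in Partek Genomics Suite and removed the difference between batch 1 (replicate 1 of each condition, 10 µg of cRNA) and batch 2 (replicates 2 and 3, 5 µg). Batch means differed by at most 6.7e-05 for any probe set. An array has no read depth, so the number of arrays limits precision. Each p-value sets a difference against the spread between these samples, with limma drawing part of the variance from all probe sets.

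Control probe sets (59 of 8799) were left out. The remaining 8740 were fitted with limma 3.58.1 in R 4.3.3 by condition and batch (5 residual degrees of freedom), with Benjamini-Hochberg adjustment, after tests on simulated data. Intervals are at 95%. Figures and tables used Python 3.11.15. Genes came from the platform's annotation: 7006 probe sets name 1 gene, 308 several and 1426 none. Promoter windows and gene neighbours came from RefSeq (GRCr8), which held windows for 6 of the 10 genes. Members and gene lists were chosen with earlier results of these data known. Genes outside the 10 are named where they are list or marker genes past the thresholds of the Methods, markers that define a cell type, or closest by correlation. Alternatives changed the batch term, the replicate block, normalization, dim probe sets (mean under 6), the arrays used, the variance prior, array weights and the fold minimum. Counts of lower probe sets without single arrays were added after the data were seen.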

Additional observations from a re-analysis of the deposited data

How the results depend on the processing

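No member difference past the thresholds of the Methods changed sign under the alternatives run. Many of these could not change a sign. In this balanced design, settings of the batch term, replicate block or variance estimate leave the log2 fold change as it was. The same holds for leaving out an array of the condition not compared. The unaltered values counted next include those of such settings. Of the single member values under alternatives at 24 hr, 370 were unaltered in call or within the replicate spread, 16 moved by more than that spread, 3 came to pass those thresholds and 9 no longer passed them. Counts of all probe sets past the adjusted test moved most. At 6 hr (4 called) the counts were 0 by ordinary two-way analysis of variance, in batch 2 alone and with the 2 compared groups alone, 9 when batch was dropped, 7 without dim probe sets, 10 under an intensity trend, 29 with array weights, and 0 to 3 with single arrays left out. At 24 hr (19 called) they were 0 by analysis of variance and in batch 2 alone, 10 with the 2 groups alone, 38 when batch was dropped, 31 without dim probe sets, 42 under the trend, 280 with array weights, and 0 to 26 with single arrays left out. Between the times (0 called) they were 6 when batch was dropped, 3 without dim probe sets, 7 under the trend, and 198 with array weights.

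Member probe sets past the thresholds of the Methods at 6 hr (1) became 0 by analysis of variance, in batch 2 alone, with the 2 groups alone, with the trend and at a fold of at least 1.5, and 0 to 3 with single arrays left out. At 24 hr (5) they became 1 in batch 2 alone, 0 at a fold of 1.5, and 4 to 6 with single arrays left out. Between the times (4) they became 1 in batch 2 alone and with the 2 groups alone, 7 with array weights, 0 at a fold of 1.5, and 2 to 5 with single arrays left out. Batch 2 alone holds 6 arrays, and for the other settings the cause was not tested.

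With the replicate number as a replicate block in place of batch, member counts were 0 at 6 hr, 5 at 24 hr and 4 between the times, and adjusted calls over all probe sets 4, 18 and 5. The conditions came from 3 shared dissections, but the labels do not tie a number to a dissection. In 3 of 18 checks an array correlated best with its own number in another condition. These checks cannot decide the pairing. Batch removal makes the deviations of the replicate 1 arrays from their condition means cancel over the conditions (r = -0.74, -0.215 and -0.498 between them). Within batch 2 such correlations were 0.048 and 0.017 with control, and 0.4 between BMP6h and BMP24h.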
